A study of Drosophila melanogaster with 4 samples.

Results

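Focal Myc peaks are short stretches of the genome over which Drosophila Myc, the product of the gene diminutive (dm), was enriched with a fairly high score. They were taken from 1 deposited list of peaks by 3 conditions: a place on chromosome arm 2L, 2R, 3L, 3R, X or chromosome 4, a score from 100 to 500, and a width of at most 800 bp. Of the 8614 peaks in the list, 7867 lay on these arms and 378 met the conditions, or 4.80% of arm peaks. They were set against the 2106 wider arm peaks of the same score range, which were over 800 bp and at most 3000 bp wide. A further 173 peaks of the range exceeded 3000 bp and were not used in the comparison.

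Myc binds DNA through a basic helix-loop-helix domain, paired with its partner Max, often at short words called E-boxes, and drives genes of ribosome production and cell growth. In the fly a single Myc gene controls cell and body size during larval growth. Chromatin immunoprecipitation followed by sequencing (ChIP-seq) crosslinks proteins to DNA, enriches the fragments held by an antibody and maps them. A narrow peak is a short run of enriched positions, and a wide one may hold several enriched sites or a spread of signal.

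The study asked where Myc sits on the chromosomes of wandering larvae at stage L3. It made 2 ChIP libraries with a rabbit polyclonal antibody named MycN, raised against a part of Drosophila Myc, and 2 libraries of input DNA from the same strain. The strain, Y cn bw sp, carries mutant alleles of y, cn, bw and sp and listed variants of oc, Gr22b, Gr22d, CG33964, LysC, lab, MstProx, GstD5 and Rh6, in ChIP and input alike. Whole larvae of unrecorded sex were used, so signal from all tissues is mixed.

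The list gives each peak a start, an end and the authors' score, on FlyBase Release 5, and no value for a single library. Depth and replicate spread are therefore unknown, and the scale of the score is stated nowhere. No test across peaks was run: differences between focal and wider peaks are given with 95% intervals that cover counting error only and treat peaks as independent, which neighbouring peaks are not. No Release 5 sequence or annotation was used, so peaks were not tied to genes and are named by coordinates. Whether both ChIP libraries hold each focal peak was not analysed here.

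Focal peaks were chosen by their width and score, so both are description. The widths lay between 382 and 800 bp, with quartiles of 616.5 and 746 bp and a median of 689.5 bp, against a median of 1247 bp for wider peaks. Scores lay between 100.35 and 491.73, and their median was 136.05, against a median of 202.87 for wider peaks. Focal peaks made up 14.2% of the 2657 arm peaks in the score range. That share was 26.8% among scores from 100 to 150 (234 of 873), 15.0% from 150 to 200 (79 of 526) and 8.42% from 200 to 250 (31 of 368). Above 300, only 13 focal peaks were listed, against 513 wider ones. No arm peak of at most 800 bp scored above 500. All 378 focal peaks together covered 254.4 kb.

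**Figure D1:**
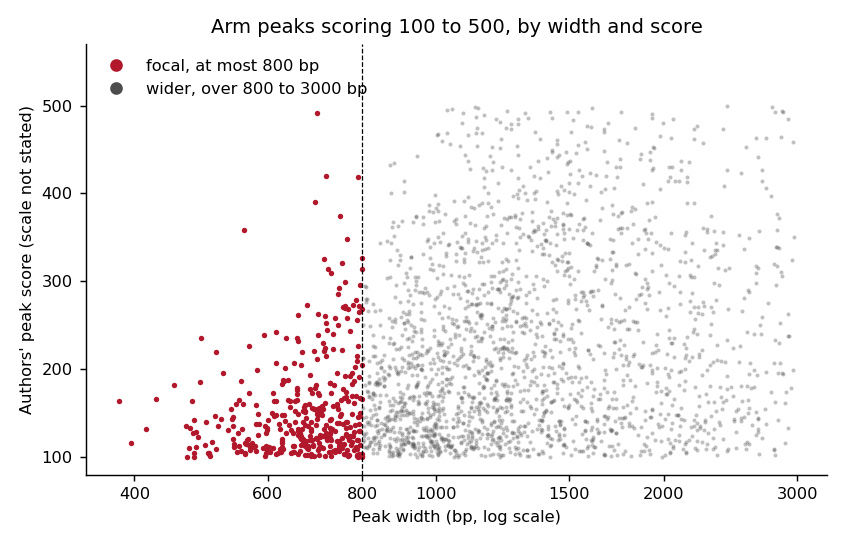
Authors' peak score (vertical axis, scale not stated) against width in bp (log axis) for the 378 focal peaks, in red, and the 2106 wider peaks, in grey; each point is 1 peak and the dashed line marks 800 bp. Focal peaks crowd between 100 and 200, and the highest of them scores 491.73.

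The width limit did not fall in a gap of the distribution. The 3 focal peaks just inside it were X:18922497-18923296 at 800 bp with a score of 326.51, 2L:16388-17187 at 800 bp with 204.51, and 3L:14666849-14667647 at 799 bp with 314.20. Just outside, at 801 bp, lay 2L:20196825-20197625 with a score of 250.53, 3R:26696036-26696836 with 212.66 and 3R:678019-678819 with 212.55. Within 20 bp of the limit there were 37 focal peaks on one side and 40 wider ones on the other. At the lower score limit, the focal peak 2L:8488755-8489223 scored 100.35, and 4:1286221-1287010 and 2L:12112909-12113388 scored 100.48 each. Narrow peaks just below it were 2L:15609060-15609651 at 99.90, and X:6904933-6905579 and X:13675949-13676607 at 99.84 each. Widths and scores ran on without a break at both limits.

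The 10 focal peaks with the highest score lay on X (6), 2R (2) and 3R (2). The first, 2R:7284795-7285491, scored 491.73 over 697 bp, and its nearest neighbour, 6.32 kb away, scored 23.46. The second, 3R:12574183-12574899, scored 419.69 over 717 bp and had a neighbour of score 85.25 at 1.39 kb. The third, X:20631190-20631978, scored 418.79 over 789 bp in a sparse stretch, with empty intervals of 103.1 kb on one side and 31.1 kb on the other. These 3 differ in their surroundings, with 13, 5 and 1 other peaks within 50 kb of their centres.

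Next in score were 3R:26771902-26772594 with 390.25, X:5882218-5882964 with 374.45 and 2R:7021751-7022308 with 358.83. The last of these was 558 bp wide, the narrowest of the 10. The remaining 4 were all on X: 6694714-6695477 with 348.39, 18922497-18923296 with 326.51, 2935454-2936164 with 325.67 and 5183491-5184241 with 320.64. The peak at X:5882218 was the exception among the 10 in having a stronger neighbour, a wider peak of score 405.34 at 2.45 kb. Of the 10, 6 had no other peak within 10 kb.

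The 5 narrowest focal peaks were 3L:23935657-23936038 (382 bp, score 163.66), X:8651862-8652257 (396 bp, 116.53), 3R:7946891-7947304 (414 bp, 132.09), 2L:16049575-16050001 (427 bp, 166.40) and 3R:5322411-5322861 (451 bp, 181.83). The first of them bordered an empty stretch of 227.0 kb. On its other side, 4.44 kb away, lay a second focal peak, 476 bp wide, whose score was the identical 163.66. That score stood at 4 peaks of the whole list.

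Focal peaks were spread over the arms much as wider peaks were. Their share of the score range was 15.4% on 3R (97 of 630, 95% exact interval from 12.7 to 18.5%), 14.9% on X (73 of 489, 11.9 to 18.4%), 14.2% on 2L (69 of 485, 11.2 to 17.7%), 13.7% on 3L (70 of 512, 10.8 to 17.0%) and 13.0% on 2R (65 of 501, 10.2 to 16.2%). The intervals of all 5 long arms overlap. Chromosome 4 held 4 focal peaks among 40 of the range. Per Mb from the first base to the end of the last peak, focal peaks numbered between 2.85 on 3L and 3.48 on 3R. X held 19.3% of focal peaks, against 18.1% of wider peaks. The difference of 1.22 percentage points (95% interval from −2.82 to 5.79) changed sign when the width limit was 700 or 900 bp.

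Along the 5 long arms, the fifth of each arm's length nearest the telomere held 24.6% of focal peaks (92) and 21.9% of wider peaks (454). The fifth nearest the centromere held 16.6% of focal peaks (62) and 19.1% of wider peaks (396). Focal peaks as a share of focal and wider peaks together were 16.8% in the fifth nearest the telomere, 15.4%, 16.0% and 14.4% in the next 3, and 13.5% in the fifth nearest the centromere. In the outermost 1 Mb at the telomeric ends lay 23 focal peaks, or 6.08%, against 111 wider peaks, or 5.27%. At the centromeric ends the 1 Mb windows held 6 focal peaks, or 1.59%, against 37 wider peaks, or 1.76%. Of these 6, 3 were on 3R, 2 on 3L and 1 on X. Both differences, of 0.814 and −0.170 percentage points, had intervals that include 0, and they changed sign in some alternatives.

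Focal peaks had fewer close neighbours than wider peaks of the same score range. The median distance from a focal peak's edge to the nearest peak of any score was 4923 bp (quartiles 2550 and 10284 bp), against 3328 bp (1380 and 6942 bp) for wider peaks. A neighbour lay within 1 kb of 31 focal peaks, or 8.20%, and of 407 wider peaks, or 19.3%. The difference was −11.1 percentage points (95% interval from −14.1 to −7.53). The share was smaller for focal peaks on each of the 5 long arms. On chromosome 4 it was larger, with 3 of 4 focal peaks and 16 of 34 wider peaks. A focal peak ended within 100 bp of another peak in 2 cases, and a wider peak in 87.

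This contrast at short range depends on how distance is counted. From centre to centre, 2.91% of focal peaks and 3.32% of wider peaks had a neighbour within 1 kb, a difference of −0.414 percentage points. A distance between centres includes part of the body of both peaks. How much of the contrast this accounts for was not tested. Within 5 kb from centre to centre the shares were 43.1% of focal and 54.6% of wider peaks. The median distance between centres was 5761 bp for focal peaks and 4437 bp for wider peaks, and it was longer for focal peaks on each of the 5 long arms but not on chromosome 4, at 1168 bp for its 4 focal and 2574 bp for its 34 wider peaks. Against wider peaks of at most 1000 bp alone, the edge distance gave 8.20% for focal peaks and 11.5% for wider peaks, a difference of −3.34 percentage points.

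**Figure D2:**
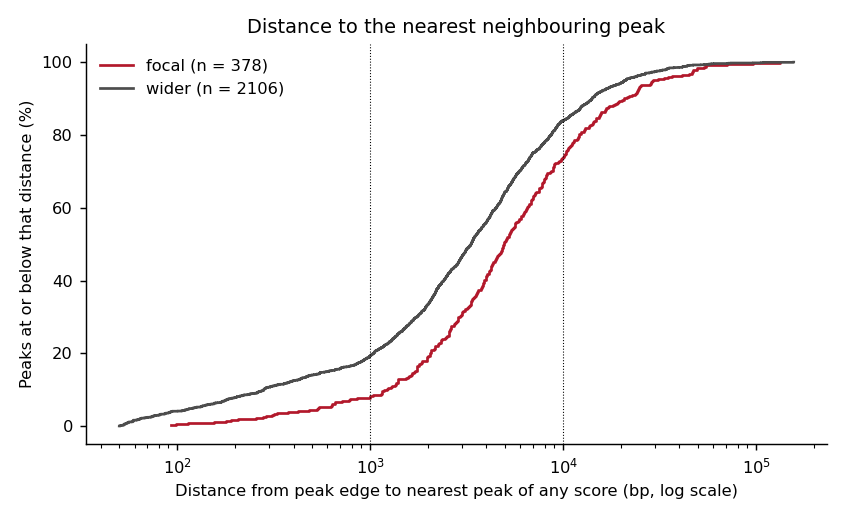
Cumulative share of peaks (vertical axis, %) by the distance in bp from a peak's edge to the nearest peak of any score (log axis), for 378 focal peaks in red and 2106 wider peaks in black. The focal curve runs to the right of the wider one, with 8.20% and 19.3% of peaks below 1 kb and medians of 4923 and 3328 bp; dotted lines mark 1 kb and 10 kb.

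Focal peaks also stood alone more often. No other peak lay within 10 kb of either edge of 98 focal peaks, or 25.9%, and of 339 wider peaks, or 16.1%. The difference was 9.83 percentage points (95% interval from 5.36 to 14.7), and it had the same direction on each of the 5 long arms. On 2L, 2R, 3L and 3R taken singly, the 95% exact intervals of focal and wider peaks overlap. With wider peaks weighted to the score distribution of the focal peaks, the share of wider peaks was 14.5%. Against wider peaks of at most 1000 bp alone, the shares were 25.9% of focal and 19.2% of wider peaks. Counting only neighbours that score at least 100, from centre to centre, they were 61.4% and 55.2%. At a limit of 20 kb the shares were 10.6% of focal and 5.70% of wider peaks. X had the widest contrast in share, with 27 of 73 focal peaks alone, or 37.0% (95% exact interval from 26.0 to 49.1%), and 48 of 381 wider peaks, or 12.6% (9.44 to 16.4%). On the 4 long autosome arms together the shares were 23.3% of focal peaks and 16.9% of wider peaks. With X left out the difference was 6.41 percentage points. Whether X differs from the autosomes in this contrast was not tested.

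Isolation went with a feature of the authors' score, found after the values were seen. Scores are given to 2 decimals, and 4490 of the 8614 peaks share their exact score with at least 1 other peak in the list. Such a recurring score was held by 172 focal peaks, or 45.5% (95% exact interval from 40.4 to 50.7%), and by 644 wider peaks, or 30.6% (28.6 to 32.6%). The 2 kinds differ in score, and the contrast varied with it. The shares were 46.2% of focal and 40.8% of wider peaks for scores from 100 to 150, with overlapping intervals. They were 41.8% and 32.3% from 150 to 200, and 47.6% and 30.0% from 250 to 300, again with overlapping intervals. From 200 to 250 they were 54.8% (17 of 31 focal peaks, 36.0 to 72.7%) and 25.2% (20.5 to 30.3%), with intervals that do not overlap. Among the 98 focal peaks with no other peak within 10 kb, 75 had a recurring score, or 76.5%, against 97 of the other 280, or 34.6%. Among wider peaks the same shares were 46.9% and 27.4%. On X, 64.4% of focal peaks and 47.0% of wider peaks had a recurring score, and on the long autosome arms 40.9% and 26.8%.

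Pooled over the arms, the contrast in isolation was seen among the peaks with recurring scores. There, 43.6% of focal peaks (75 of 172, 95% exact interval from 36.1 to 51.4%) and 24.7% of wider peaks (159 of 644, 21.4 to 28.2%) had no other peak within 10 kb. Among peaks whose score occurs once, the shares were 11.2% of focal peaks (23 of 206, 7.21 to 16.3%) and 12.3% of wider peaks (180 of 1462, 10.7 to 14.1%). The difference there was −1.15 percentage points, the opposite sign. On X the focal share was the larger one among scores that occur once. There 5 of 26 focal peaks (19.2%, 6.55 to 39.4%) and 12 of 202 wider peaks (5.94%, 3.11 to 10.1%) were alone. These intervals overlap, and the focal one includes the pooled focal share of 11.2%. Over all arms the median edge distance of peaks with such scores was 3869 bp for focal and 2994 bp for wider peaks. Close neighbours did not divide in this way: within 1 kb the shares were 9.30% of focal and 19.6% of wider peaks with a recurring score, and 7.28% of focal and 19.2% of wider peaks with a score that occurs once. What makes scores recur was not tested.

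**Figure D3:**
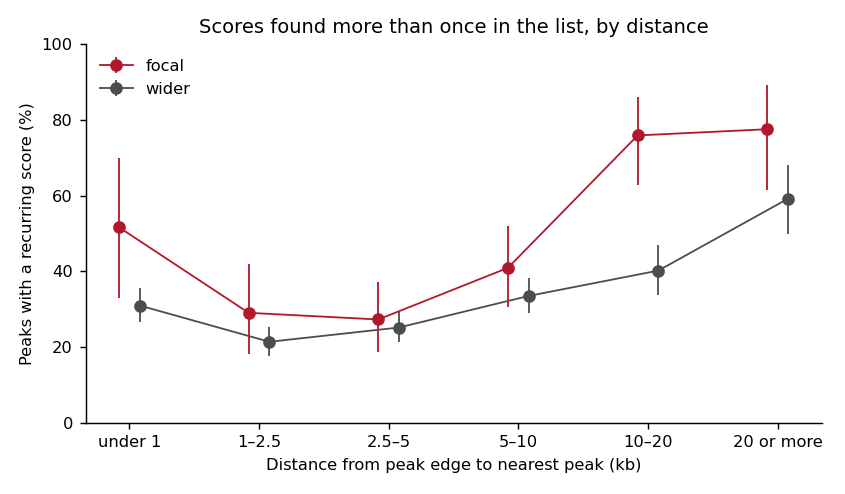
Share of peaks whose exact score occurs more than once in the list (vertical axis, %) by the distance from the peak's edge to the nearest peak in kb, for focal peaks in red and wider peaks in black, with 95% exact binomial intervals. Among focal peaks the share was 27.3% at distances of 2.5 to 5 kb (27 of 99) and 77.5% at 20 kb or more (31 of 40), but 51.6% under 1 kb (16 of 31), so it did not climb steadily with distance; among wider peaks the same 3 shares were 25.2%, 59.2% and 31.0%.

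**Figure D4:**
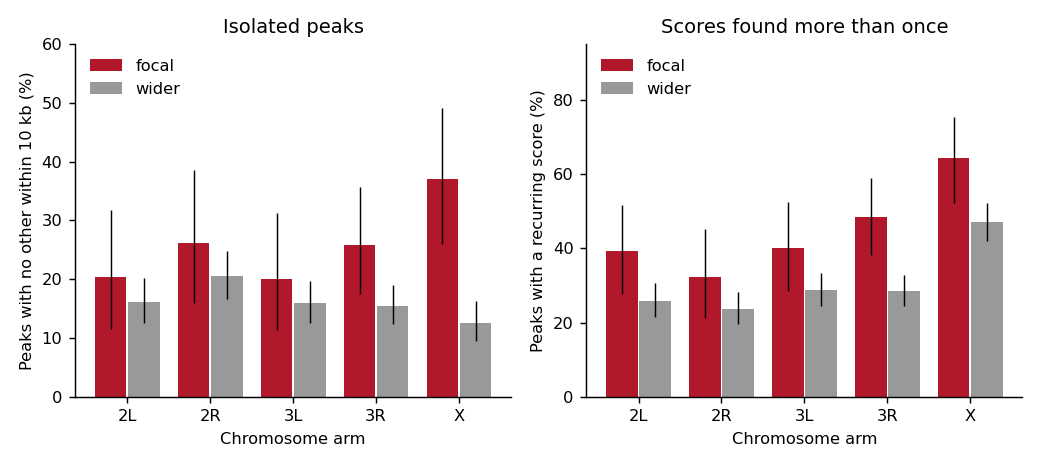
Left, share of peaks with no other peak within 10 kb of an edge, by long arm; right, share with a score that occurs more than once (both in %), for focal peaks in red and wider peaks in grey. Bars show 95% exact binomial intervals. Focal bars stand above wider bars on every arm shown, most on X in the left panel, at 37.0% and 12.6%. In the left panel the intervals of focal and wider peaks overlap on every arm but X.

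Among the focal peaks themselves, the narrowest had the longest median distance to another peak. The 82 of at most 600 bp had a median centre-to-centre distance of 7774 bp, the 128 of over 600 and up to 700 bp one of 5999 bp, and the 168 of over 700 and up to 800 bp one of 5053 bp. In the same order, 35.4%, 26.6% and 20.8% had no other peak within 10 kb. Other measures did not follow width in this way. A neighbour lay within 1 kb of 7.32%, 6.25% and 10.1%, and each group had a median of 7 other peaks within 50 kb. The 225 wider peaks of up to 900 bp had a median of 5157 bp, close to that of the widest focal peaks. Beyond 1000 bp of width the medians ran from 4168 to 4446 bp. The order of the median distances among focal peaks held within narrower score ranges. For scores from 100 to 150 the medians were 7057, 5774 and 5001 bp, and for scores above 150 and up to 250 they were 9086 (18 peaks), 6696 and 5103 bp. No step at 800 bp stood out.

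**Figure D5:**
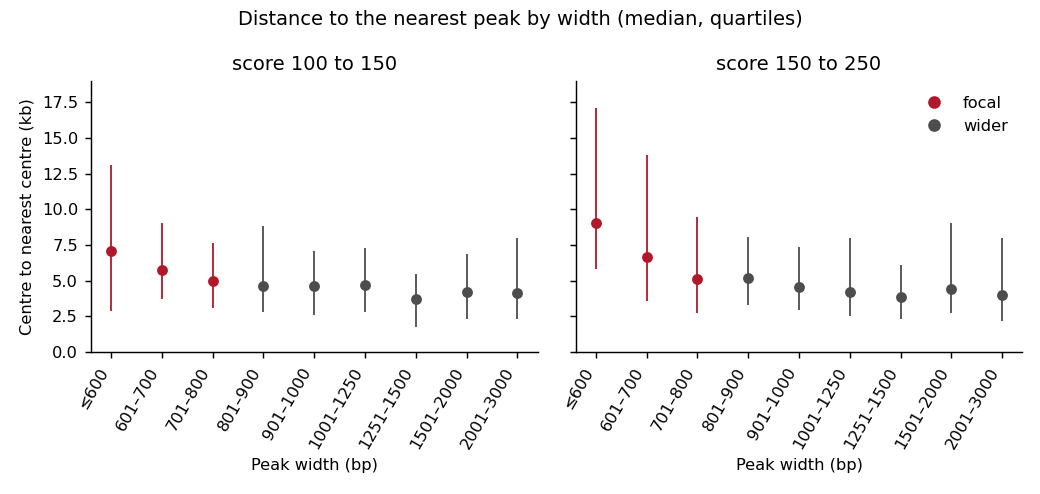
Median distance between the centre of a peak and the nearest other peak centre, in kb, by peak width in bp, for scores from 100 to 150 (left) and above 150 and up to 250 (right); focal widths are red, wider ones black, and lines span the quartiles. The medians of the narrowest bin are 7.06 and 9.09 kb, and the quartile ranges of neighbouring bins overlap.

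The most isolated focal peak was 2L:16049575-16050001, which is also the fourth narrowest, with 133.3 kb without a peak on one side and 148.1 kb on the other. Next came 3R:13744679-13745435, with 107.3 and 96.3 kb of empty sequence beside it and a score of 114.71. The peak 2L:21899080-21899703, with a score of 106.33, had 70.2 and 124.6 kb. On X, 18922497-18923296 had 55.1 and 84.1 kb, and 5046937-5047562, with a score of 148.27, had 54.8 and 135.9 kb. In 4 of these 5 the nearest neighbour was a weak peak, with a score from 13.16 to 50.10. At X:18922497 the nearest neighbour was another focal peak, of score 132.72. In all, 21 focal peaks, or 5.56%, bordered one of the 134 intervals over 100 kb on the arms, against 68 wider peaks, or 3.23%.

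Local density of peaks was lower around focal peaks at short range. Within 50 kb of the centre a focal peak had a median of 7 other peaks (quartiles 5 and 9.75), and a wider peak 8 (5 and 11). More other peaks than the median arm peak, which had 8, surrounded 34.4% of focal peaks and 44.9% of wider peaks, a difference of −10.5 percentage points (95% interval from −15.6 to −5.17). By arm, the focal median was lower on 3 of the 5 long arms (6 on 3L and 3R, 7 on X) and equal on 2L and 2R, at 8. The difference in share was −6.01 percentage points with 3R left out and −6.40 at a width limit of 900 bp. It was −9.895 among peaks with recurring scores and −5.955 among peaks whose score occurs once. Over 250 kb the medians were 35 and 36, and the difference in share was −2.71 percentage points. No other peak at all lay within 50 kb of 8 focal peaks, or 2.12%, and of 16 wider peaks, or 0.760%.

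Focal peaks in crowded stretches existed too. 2R:9855476-9856031, with a score of 159.97, and 3R:17452081-17452711, with 147.66, each had 20 other peaks within 50 kb. 2L:10246737-10247347 had 19, 4:1286221-1287010 had 17 and 2L:16306820-16307511 had 16. The nearest neighbours of these 5 were weak peaks, with scores from 13.49 to 42.80.

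Beside both kinds of peak, most nearest neighbours were weaker peaks below the score range. Most arm peaks lie there too, as the median score over all arm peaks was 62.87. The nearest neighbour scored below 100 for 231 focal peaks, or 61.1%, and for 65.4% of wider peaks, a difference of −4.32 percentage points (95% interval from −9.71 to 0.882), or −2.61 with 2L left out. It was a wider peak of the range for 102 focal peaks (27.0%), against 25.7% of wider peaks. For 27 focal peaks (7.14%) it was another focal peak, against 4.04% of wider peaks, where focal peaks are 4.80% of arm peaks. A peak scoring above 500 was nearest to 13 focal peaks (3.44%), against 2.90% of wider peaks. A peak of the range over 3000 bp was nearest to 5 (1.32%), against 1.90% of wider peaks. The median score of the nearest neighbour was 74.10 for focal peaks and 58.26 for wider peaks. The neighbour was narrower than the peak itself for 42.6% of focal and 77.9% of wider peaks, which follows in part from the choice by width.

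Neighbours within 1 kb were weak beside both kinds of peak. Beside the 31 focal peaks concerned, their median score was 43.69 (quartiles 16.64 and 118.43) and their median width 627 bp. Beside the 407 wider peaks, the median score was 23.10 (12.02 and 83.53) and the median width 590 bp. The neighbour scored lower than the peak itself in 74.2% of these focal cases (23 of 31, 95% exact interval from 55.4 to 88.1%) and in 88.0% of the wider cases (84.4 to 91.0%). That contrast follows in part from the peaks' own scores, with medians of 136.05 for all focal and 202.87 for all wider peaks.

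Focal peaks were 4.80% of arm peaks, and most successive ones had other peaks between them. The 372 intervals between successive focal peaks of an arm had a median of 203.7 kb from centre to centre (quartiles 78.6 and 442.7 kb) and a median of 13 other peaks between. Of these intervals, 31, or 8.33%, held no other peak, and 18 were under 10 kb. How many would hold none by the share of focal peaks alone was not computed. Of the peaks in the score range, focal peaks were 14.2%. Among peaks of that range alone, the nearest one was focal for 62 focal peaks, or 16.4% (95% exact interval from 12.8 to 20.5%). This interval includes the 14.2%. The nearest one was focal for 260 wider peaks, or 12.3% (11.0 to 13.8%). Focal peaks nearest to each other are each counted. The difference between focal and wider peaks was 4.06 percentage points (95% interval from 0.359 to 8.34). It was 4.89 with wider peaks weighted to the focal score distribution, 2.12 with 3L left out, 6.22 with 2R left out, and 2.06 and 1.47 at width limits of 700 and 900 bp.

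The closest pair of focal peaks lay on X, from 3997951 to 3998715 (score 122.53) and from 3999502 to 4000275 (score 149.38), 786 bp apart. The second, on 3R, ran from 17232406 to 17233063 (score 103.39) and from 17234056 to 17234553 (score 140.43), 992 bp apart. The third, again on X, ran from 12372321 to 12372892 (score 115.92) and from 12374286 to 12374863 (score 137.84), 1393 bp apart. In none of the 3 pairs did another peak lie between.

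On the scaffolds not assigned to a chromosome, peaks of the same width and score limits were a larger share than on the arms. On Uextra, 74 of the 113 peaks scoring 100 to 500 were at most 800 bp wide, or 65.5% (95% exact interval from 56.0 to 74.2%), against 14.2% on the arms (12.9 to 15.6%). On U it was 8 of 19, or 42.1% (20.3 to 66.5%). On the heterochromatin scaffolds together it was 3 of 16, or 18.8% (4.05 to 45.6%), an interval that includes the share on the arms. Scaffold lengths, which can limit the width of a peak, were not used.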

How the data were processed

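ChIP DNA (2 libraries) and input DNA (2 libraries) from whole larvae were sequenced. The authors deposited 1 peak list whose source column reads MACS, on FlyBase Release 5 per the file headers. BWA, MACS2, CASAVA (1.7.0.2, 1.7.0.3) and the build BDGP5 stand in the submitters' processing notes without their roles. The authors deposited a score per peak whose scale, and whether it was altered after peak calling, are stated nowhere. Start and end count from 1. The peak threshold, any filter and any pooling: not given in the sources used here. Depth is unknown, and its effect on which peaks were called, their widths and their scores could not be examined.

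Focal and wider peaks, edge and centre distances, neighbours and local density were computed with Python 3.11.15, pandas 2.3.3 and scipy 1.17.1, and the code was tested on simulated peaks with set gaps. Shares have exact binomial intervals and differences Newcombe intervals, both at 95%. The members and lists were chosen with earlier results of these data known. Named peaks followed a rule: the 10 highest scores, 5 narrowest, 5 most isolated, 5 in the densest surroundings, 3 closest pairs, and those beside each threshold. The planned descriptions of the binding word and of transcription starts need a Release 5 genome and were not run.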

Additional observations from a re-analysis of the deposited data

How the results depend on the processing

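No paired analysis was possible because the 1 list holds no value per library, nor could a library be left out. Of 103 alternatives, 85 kept the sign and stayed inside the 95% interval of the reported value (counts: within 1.5 times); the 16 that use recurring scores, wider peaks of at most 1000 bp or stronger neighbours only were added after seeing the data. Focal peaks numbered 378 as reported, 210 at 700 bp, 603 at 900 bp and 144 for scores from 150, by construction. In percentage points, focal minus wider, the difference in neighbours within 1 kb was −0.414 from centre to centre and −3.34 against wider peaks of at most 1000 bp. The difference in peaks alone within 10 kb was 4.88 at 20 kb, 18.9 among recurring scores and −1.15 among scores that occur once. The difference in dense surroundings was −2.71 over 250 kb. Location values had intervals that include 0 and changed sign: centromeric ends to 0.190 at 700 bp, 0.102 without 2L and 0.389 without 2R; telomeric ends to −0.691 at 700 bp and −0.992 at 900 bp; the share on X to −1.76 and −0.922; and the focal share of the score range, X minus autosomes, 0.784 as reported, to −0.925 and −1.44. The causes were not tested.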

Other observations

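Recurring scores in focal peaks were also split by arm and by score. By arm, the share of focal peaks with a score that occurs more than once was 32.3% on 2R (21 of 65), 39.1% on 2L (27 of 69), 40.0% on 3L (28 of 70), 48.5% on 3R (47 of 97) and 64.4% on X (47 of 73, 95% exact interval from 52.3 to 75.3%). By score, the share of focal peaks was 46.2% from 100 to 150 (108 of 234) and 41.8% from 150 to 200 (33 of 79). It was 54.8% from 200 to 250 (17 of 31) and 47.6% from 250 to 300 (10 of 21). The 95% exact intervals of these focal shares all overlap, and the shares have no order by score. For wider peaks in the same classes the share was 40.8%, 32.3%, 25.2% and 30.0%. How many repeats arise by chance was not computed.

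On X, focal peaks stood alone within 10 kb in 46.8% of cases with a recurring score (22 of 47) and 19.2% with a score that occurs once (5 of 26, 95% exact interval from 6.55 to 39.4%), against 20.1% and 5.94% of wider peaks on X. On the long autosome arms the shares were 42.3% and 10.1% of focal peaks, against 26.9% and 13.3% of wider peaks.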
